A study of Homo sapiens with 12 samples.

Results

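SIGLEC6, INTS3, PZP, XYLT1 and KCNA7 had the largest decreases in HUCCT1 cells after decitabine under the ranking rule given below, which includes a limit on level. All 5 are protein-coding genes, and they were followed here through every arm of a second cell line, EGI-1. They are 5 of the 60651 genes in the deposited count table. They were chosen by their measured HUCCT1 fold changes. The ranking by log2 fold change took in genes that edgeR called at an adjusted p of 0.05, whose mean log2 CPM (library-size scaled counts) was 1 or more and whose treated libraries both lay under both vehicle libraries, with histone genes left out. This ranking returned the 5 genes in places 1 to 5 of 2659.

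HUCCT1 and EGI-1 are established, wild-type cholangiocarcinoma (CCA) cell lines, a cancer of the bile duct, and their RNA was sequenced in 12 libraries. HUCCT1 received vehicle or 1 μM decitabine, and EGI-1 received vehicle, 0.5 μM decitabine, 200 nM talazoparib or both drugs, each for 72 h. Each of the 6 arms held 2 libraries. The study asked how a PARP inhibitor, talazoparib, adds to a DNA methyltransferase inhibitor, decitabine, in CCA cells. The methods describe the EGI-1 experiment only, and the names of the talazoparib libraries carry another number than the labelled 200 nM. Nothing in the labels says that the libraries of an arm came from separate cultures, so p-values measure the spread between these libraries, which may be technical.

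Decitabine is a cytidine analogue that is built into DNA and traps DNA methyltransferases, so that methylation is lost as cells divide. It is best known for switching silenced genes on, and the genes described here moved the other way in HUCCT1. SIGLEC6 is a sialic acid-binding receptor of placental trophoblasts, mast cells and B cells, and PZP (pregnancy zone protein) is a secreted protease inhibitor related to alpha-2-macroglobulin. XYLT1 is a xylosyltransferase that starts glycosaminoglycan chains on proteoglycans, KCNA7 is a voltage-gated potassium channel of the Kv1 family, and INTS3 is a subunit of the Integrator complex, which cleaves nascent RNA, and of the SOSS complex, which binds single-stranded DNA at breaks.

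The EGI-1 libraries held 23139065 to 33181930 counts and the HUCCT1 libraries 32519985 to 34965627. The 7 biliary epithelial markers (such as KRT7, KRT19 and EPCAM) summed to between 8312 and 16568 CPM, and none was at or under 3 counts throughout any arm. In HUCCT1 the sum was 14763.6 to 16567.6 CPM with vehicle and 9371.3 to 10728.5 with decitabine. There 4 of the 7 were called lower and 1 higher, beside 13.9% and 19.6% of all genes. KRT7 was at 39.0 to 69.5 CPM in EGI-1 and at 4033 to 7506 in HUCCT1. One library stood apart. In replicate 2 of the EGI-1 combination arm, 47 genes had at least 10 counts and no count in the other 7 EGI-1 libraries, while none of those 7 libraries had such a gene. The 10 leukocyte and mast cell markers summed to 23.1 CPM there and to between 2.65 and 4.93 CPM in the other 7. PTPRC, the pan-leukocyte phosphatase, had 381 counts there and at most 7 elsewhere in EGI-1, and CD3E, a T-cell receptor chain, had 148 and at most 4. The mast cell genes TPSAB1 and CPA3 had 0 and 1 counts in this library. Values without this library are also given for XYLT1, INTS3, INTS5, CD22, CHSY3, CGB5, CGB7 and CGB8. The other combination values below include it unless stated.

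The regions just upstream of the genes are shown because decitabine acts on methylated CpG sites. Each line gives the 250 bases before the RefSeq gene start on GRCh38.p14, read 5′ to 3′ on the strand of the gene, with CpG dinucleotides in capitals. INTS3 lies at chr1:153727800-153728049 on the plus strand, PZP at chr12:9208396-9208645, XYLT1 at chr16:17470961-17471210 and KCNA7 at chr19:49072700-49072949, these 3 on the minus strand.
INTS3: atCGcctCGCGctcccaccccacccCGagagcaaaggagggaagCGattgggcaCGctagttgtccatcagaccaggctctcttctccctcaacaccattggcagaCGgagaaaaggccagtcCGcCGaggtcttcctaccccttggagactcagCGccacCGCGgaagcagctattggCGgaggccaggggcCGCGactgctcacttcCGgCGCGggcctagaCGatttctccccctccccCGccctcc
PZP: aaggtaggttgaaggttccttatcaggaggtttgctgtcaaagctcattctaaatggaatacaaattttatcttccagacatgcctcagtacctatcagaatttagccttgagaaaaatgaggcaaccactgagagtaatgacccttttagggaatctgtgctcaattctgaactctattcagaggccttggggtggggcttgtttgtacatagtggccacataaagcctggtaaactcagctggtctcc
XYLT1: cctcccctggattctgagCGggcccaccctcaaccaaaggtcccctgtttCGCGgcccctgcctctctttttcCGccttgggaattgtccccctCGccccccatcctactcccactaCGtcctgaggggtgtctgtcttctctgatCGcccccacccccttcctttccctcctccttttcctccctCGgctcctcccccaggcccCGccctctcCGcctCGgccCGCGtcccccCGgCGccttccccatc
KCNA7: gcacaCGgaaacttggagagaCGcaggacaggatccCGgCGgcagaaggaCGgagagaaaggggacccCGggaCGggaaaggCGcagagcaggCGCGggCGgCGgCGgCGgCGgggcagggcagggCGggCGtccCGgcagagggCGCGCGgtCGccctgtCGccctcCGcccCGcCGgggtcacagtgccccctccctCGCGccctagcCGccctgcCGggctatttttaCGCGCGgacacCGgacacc

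The 5 upstream regions had little in common. That of KCNA7 held 34 CpG sites, and 6.61% of 27305 promoters held as many. INTS3 had 20, XYLT1 15 and SIGLEC6 12, counts that 32.1%, 42.7% and 48.3% of promoters reached, and PZP had 0. The letters CG read the same on both strands. The median was 20 over the 13015 promoters of genes tested in HUCCT1 and 20 over the 2152 of genes called lower. The SIGLEC6 region is not printed because it overlaps the longer gene span that GENCODE 44 gives. No methylation was measured in these libraries.

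In HUCCT1 the 5 genes were at modest levels with vehicle and low levels with decitabine. These values chose the genes and are given without a test. In that comparison 13.9% of the 22479 genes tested were called lower and 19.6% higher. SIGLEC6 had 333 and 349 counts with vehicle and 44 and 29 with decitabine, or 11.2 ± 0.397 and 1.18 ± 0.279 CPM (SD, n = 2 libraries), a log2 fold change of -3.26. INTS3 had 548 and 629 counts against 92 and 44, or 19.4 ± 1.93 and 2.18 ± 0.980 CPM, a log2 fold change of -3.15. The 2 decitabine libraries differed 1.93-fold in INTS3 CPM, the widest replicate gap of the 5 genes in this line. PZP had 397 and 342 counts against 79 and 51, a log2 fold change of -2.54. XYLT1 had 225 and 271 counts against 52 and 43, a log2 fold change of -2.42. KCNA7 had 331 and 339 counts against 80 and 49, a log2 fold change of -2.41. None of the genes reached 0 after decitabine, and the folds lay between 5.33-fold and 9.55-fold lower.

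**Figure D1:**
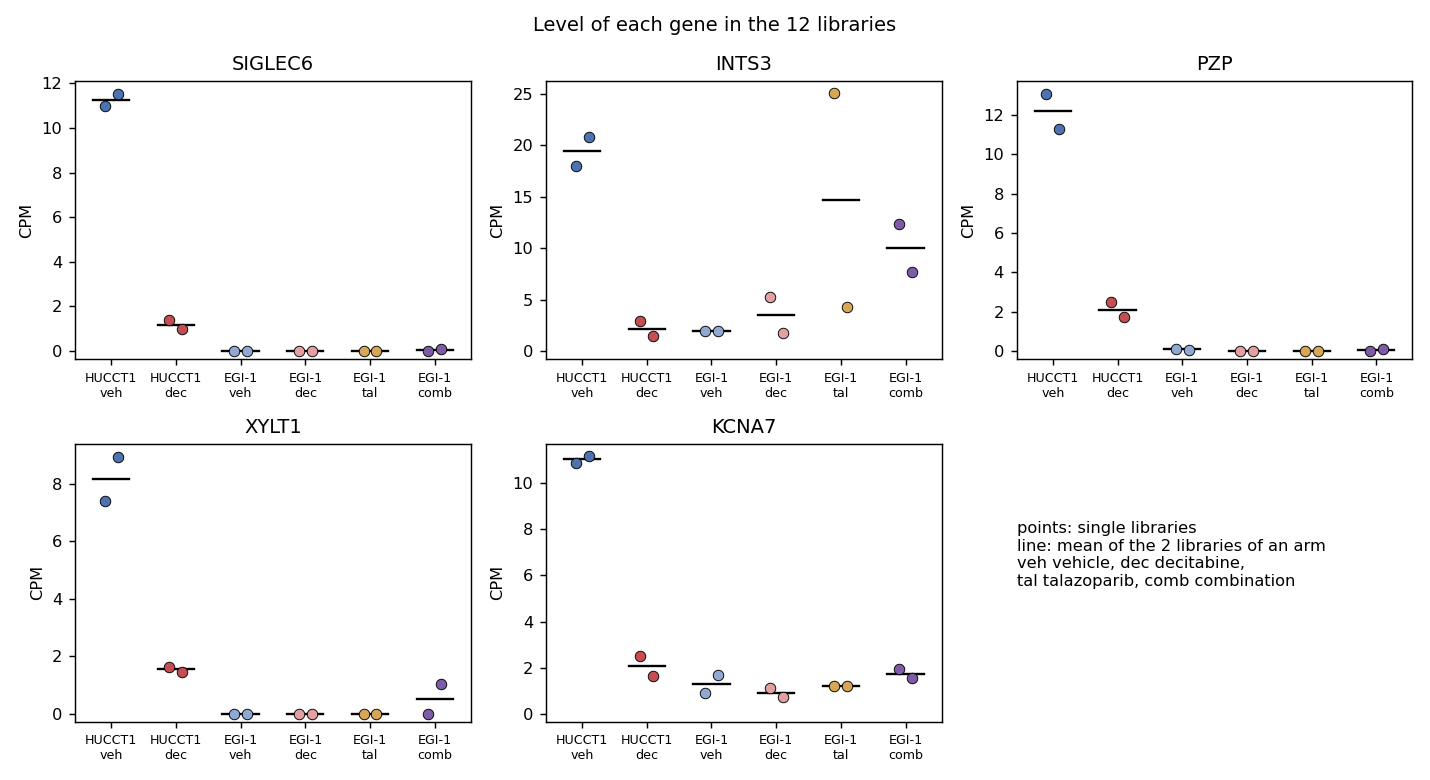
CPM of each gene (vertical axis, linear) in the 12 libraries by arm, with points for libraries and a line for the mean of 2. The vehicle libraries of HUCCT1 lie above its decitabine libraries in every panel, which the choice of the genes required. Only INTS3 spreads widely in EGI-1, up to 25.1 CPM in talazoparib replicate 1.

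XYLT1 and KCNA7 stood just inside the choice of 5. The next genes were LRRN1 (-2.21 on the log2 scale), a leucine-rich repeat membrane protein with 5424 and 5520 counts against 1278 and 1149, BTBD2 (-2.10) with 4646 and 5465 against 1183 and 1228, and NTF4 (-2.08), a neurotrophin with 140 and 151 against 31 and 39. A further 25 genes had larger decreases than the fifth gene but lay below the limit of 1 log2 CPM.

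SIGLEC6, PZP and XYLT1 were almost absent from EGI-1, and they did not pass the filter on low counts there. SIGLEC6 had 0 counts in 7 EGI-1 libraries and 2 in combination replicate 2. With 3 counts as the limit that a count of 0 allows per library, its HUCCT1 vehicle level was at least 104-fold higher than that of EGI-1 vehicle. PZP had 3 and 2 counts with vehicle, 0 in all 4 single-agent libraries, and 0 and 3 with the combination. These PZP values are at or under the limit in every arm, so no change was detectable at this depth. Intervals and limits of this kind cover counting error only.

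XYLT1 had 0 counts in 7 EGI-1 libraries and 31 in combination replicate 2, and its HUCCT1 vehicle level was at least 75.9-fold higher than that of EGI-1 vehicle. Both combination libraries received the same drugs, and replicate 1 had 0 XYLT1 counts. The library with the 31 counts is the one with the leukocyte markers given above. It also held reads of some other genes that HUCCT1 expresses and the other EGI-1 libraries lack. Of 34 genes with at least 200 counts in both HUCCT1 vehicle libraries and 0 in the other 7 EGI-1 libraries, 13 had any count there and 9 more than 3, the highest after XYLT1 being 19. The median of these 34 genes in that library was 0 counts. The XYLT1 level there was 12.5% of its HUCCT1 vehicle level, while SIGLEC6 and PZP had 2 and 3 counts there. PTPRC, with 381 counts there, had 3 and 4 in HUCCT1 vehicle. The source of these reads was not tested. Without combination replicate 2 no XYLT1 count remained in EGI-1, and the part of the leukocyte signal in the 31 counts was not tested. With no filter on low counts, edgeR called XYLT1 in the combination against vehicle (adjusted p = 0.00012) on the reads of that library alone.

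**Figure D2:**
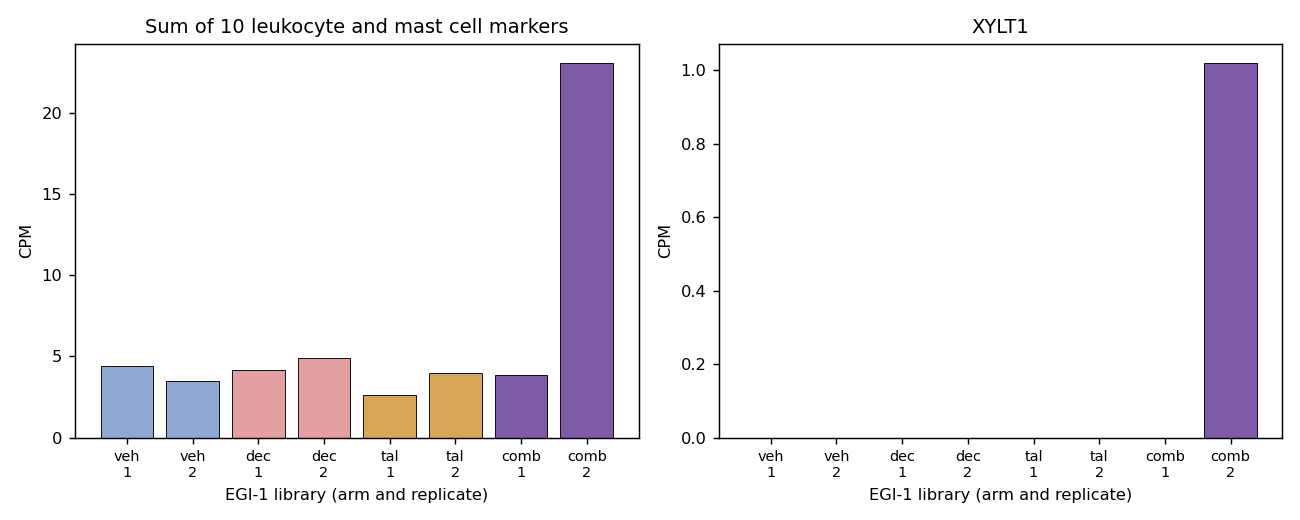
Summed CPM of the 10 leukocyte and mast cell markers (left) and CPM of XYLT1 (right) in each of the 8 EGI-1 libraries, with 1 bar a library. Combination replicate 2 has the highest bar in both panels, 23.1 CPM for the markers and 1.02 CPM for XYLT1.

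Only INTS3 and KCNA7 could be tested in EGI-1, and edgeR called neither in any of 6 contrasts at an adjusted p under 0.05. The share of the 22406 genes called was 0.544% for decitabine against vehicle, 4.12% for talazoparib and 18.7% for the combination. It was 7.68% for the combination against decitabine, 1.92% for the combination against talazoparib and 0.161% for the departure of the combination from the summed single effects. Unadjusted, edgeR put 1 of these 12 tests under 0.05, that of KCNA7 in the combination against decitabine, and DESeq2 called 1 of the 12 after adjustment, that of INTS3 with talazoparib.

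INTS3 varied widely between the EGI-1 libraries, also within an arm. It had 59 and 54 counts with vehicle, 157 and 47 with decitabine, 616 and 149 with talazoparib, and 303 and 235 with the combination. In CPM this was 1.94 ± 0.00408 with vehicle, 3.47 ± 2.48 with decitabine, 14.7 ± 14.7 with talazoparib and 10.1 ± 3.28 with the combination (SD, n = 2). All talazoparib and combination libraries lay above both vehicle libraries, while the decitabine libraries lay on either side of them. The log2 fold change over vehicle was 0.86 with decitabine (SE 1.29, edgeR adjusted p = 0.914), 2.88 with talazoparib (SE 1.16, edgeR adjusted p = 0.355) and 2.35 with the combination (SE 1.18, edgeR adjusted p = 0.280). Without combination replicate 2 the last was 2.67 (edgeR adjusted p = 0.411). DESeq2 called the talazoparib difference (adjusted p = 0.045), and edgeR on the vehicle and combination libraries alone called the combination (adjusted p = 2.57e-07).

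These differences did not pass in the fit over 8 libraries, in which the 4 arms share 1 estimate of the spread. The spread was unequal between arms. The talazoparib libraries differed 5.88-fold from each other and the decitabine libraries 3.04-fold, while the combination libraries differed 1.60-fold and the vehicle libraries 1.00-fold. In each treated arm the higher library was replicate 1, and the names of these libraries share a form, B with a number. The vehicle library with such a name was replicate 2, and both vehicle libraries were at 1.94 CPM. The labels do not say what this form means, and its part in the spread was not tested. The fitted difference from vehicle was 7.39-fold for talazoparib and 5.11-fold for the combination. The quasi-dispersion of INTS3, a measure of spread beyond counting, was 36.1 against a median of 0.684, the place 25 highest of 22406 genes. In HUCCT1 its spread ranked 456 of 22479. With decitabine alone INTS3 was lower in both HUCCT1 libraries at 1 μM and on either side of vehicle in EGI-1 at 0.5 μM, doses that differ, so the arms are given side by side only.

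The other Integrator and SOSS subunits did not vary in this way. Over the 8 EGI-1 libraries the highest CPM of INTS3 was 14.6 times its lowest, while this ratio was between 1.07 and 1.66 for the other 18 genes, with a median of 1.16. INTS3 was also the least abundant of the complex per length of transcript in EGI-1 vehicle, at 0.185 CPM per kb, where the others lay between 0.833 and 36.9. In HUCCT1 vehicle it was at 1.85 CPM per kb, within the range of the others from 0.928 to 51.5. In HUCCT1 decitabine, where 19.6% of all genes rose and 13.9% fell, 2 of the other 18 genes rose (INTS6 by 0.40 and INTS15 by 0.38 on the log2 scale) and 1 fell (NABP2, a SOSS subunit, by 0.50), with a median log2 fold change of 0.03 beside 0.00 over all genes tested. In the EGI-1 combination, 2 of the other 18 genes rose and none fell, beside 11.1% and 7.61% of all genes. NABP1, the other single-strand binding subunit, rose by 0.39 (SE 0.07, edgeR adjusted p = 0.000954). INTS5 rose by 0.21 (SE 0.07, edgeR adjusted p = 0.0394). INTS5 was not called without combination replicate 2 (edgeR adjusted p = 0.127).

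**Figure D3:**
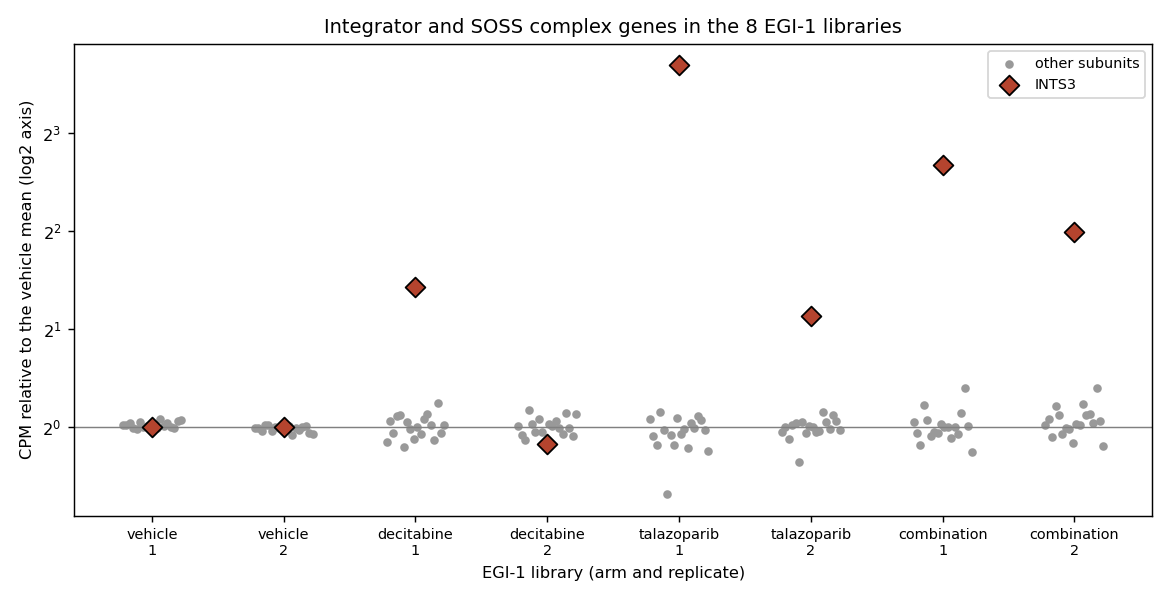
CPM of INTS3 (diamonds) and of the other 18 Integrator and SOSS genes (grey points) in each EGI-1 library, divided by the mean of the 2 vehicle libraries, on a log2 axis. INTS3 spans a 14.6-fold range while no other gene spans more than 1.66-fold.

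INTS3 spans chr1:153728050-153774808, and SLC27A3, a fatty acid transport protein on the same strand, overlaps its end by 455 bases. SLC27A3 had 17 and 13 counts with vehicle and 17 and 99 with decitabine in HUCCT1. In EGI-1 it had 62 and 2 counts with vehicle, 4 and 7 with decitabine, 5 and 41 with talazoparib, and 3 and 2 with the combination. In EGI-1 its highest counts were in vehicle replicate 1 and talazoparib replicate 2, whereas those of INTS3 were in talazoparib replicate 1 and combination replicate 1. How reads in shared bases were assigned is not given in the sources used here. On the other side, 34.1 kb away, NPR1, the receptor of atrial natriuretic peptide, rose in HUCCT1 from 32 and 19 counts to 358 and 338, by 3.73 on the log2 scale. It was at 1 to 9 counts in EGI-1. Of the 9 genes tested within 100 kb of INTS3, 1 rose in HUCCT1 and none fell, beside 19.6% and 13.9% of all genes.

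KCNA7 was low in EGI-1, and its highest CPM there was 2.63 times its lowest. It had 27 and 47 counts with vehicle, 33 and 20 with decitabine, 29 and 42 with talazoparib, and 47 and 47 with the combination. In CPM this was 1.29 ± 0.568, 0.913 ± 0.259, 1.19 ± 0.0146 and 1.73 ± 0.264 in the same order (SD, n = 2), and each treated arm had at least 1 library within the vehicle range. The vehicle libraries differed 1.91-fold from each other, the widest replicate gap of KCNA7 in EGI-1. The log2 fold change over vehicle was -0.47 with decitabine (SE 0.34, edgeR adjusted p = 0.755), -0.10 with talazoparib (SE 0.33, edgeR adjusted p = 0.930) and 0.42 with the combination (SE 0.32, edgeR adjusted p = 0.406). The combination exceeded decitabine alone by 0.89 (SE 0.33, edgeR adjusted p = 0.120), both combination libraries lying above both decitabine libraries. With vehicle, HUCCT1 held 8.58-fold more KCNA7 than EGI-1 and 10.0-fold more INTS3, values given without a test. After decitabine KCNA7 in HUCCT1, at 2.08 ± 0.596 CPM, came near the EGI-1 vehicle level of 1.29 ± 0.568, and INTS3 did so at 2.18 ± 0.980 beside 1.94 ± 0.00408.

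Genes around KCNA7 were lower in HUCCT1 as well. KCNA7 lies at chr19:49067397-49072699, and of the 20 other genes tested within 100 kb, 11 fell and 3 rose, with a median log2 fold change of -1.03. Some of the 11 overlap each other or are near-identical copies, so they are not separate observations. Over all genes tested 13.9% fell and the median was 0.00. NTF4, 2.32 kb away and eighth in the ranking, differed by -2.08 on the log2 scale. The lncRNA genes ENSG00000268287 and ENSG00000268108 fell as well, with log2 fold changes of -2.04 and -2.72. The first went from 56 and 61 counts to 18 and 11 and the second from 65 and 65 to 12 and 8. Both are on the opposite strand to NTF4. The first lies wholly inside NTF4 and the second overlaps only its end. Whether counting used the strand is not given in the sources used here, so reads in the shared bases cannot be told apart from those of NTF4. RN7SL708P, a signal recognition particle RNA pseudogene 8.63 kb on the other side, went from 15 and 15 counts to 0 and 0. SNRNP70, a U1 splicing protein gene 12.7 kb away, differed by -0.01.

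The same window holds the genes of the beta chains of luteinising hormone and chorionic gonadotropin, named here after their values were seen. In HUCCT1, CGB8 fell by 1.36, CGB7 by 1.28, LHB by 1.05 and CGB5 by 1.01 on the log2 scale. CGB2, with 18 and 26 counts against 13 and 21, differed by -0.40 and did not pass (edgeR adjusted p = 0.557). CGB5 had 1047 and 1168 counts with vehicle and 462 and 654 with decitabine, while CGB3 rose from 10 and 3 counts to 11 and 31. In EGI-1, CGB5, CGB7 and CGB8 rose with the combination, while LHB differed by 0.15 (SE 0.29, edgeR adjusted p = 0.781). CGB3, with 1 to 6 counts, and CGB2, with 0 to 7, were not tested there. CGB5 had 67 and 63 counts with vehicle and 128 and 153 with the combination, a rise of 1.19 (SE 0.19, edgeR adjusted p = 0.000199). CGB8 rose by 1.78 (SE 0.31, edgeR adjusted p = 0.000633) and CGB7 by 1.23 (SE 0.25, edgeR adjusted p = 0.00209), among 11.1% of genes called higher and 7.61% called lower. All 3 were still called without combination replicate 2, CGB7 at an edgeR adjusted p of 0.0481. The CGB genes are near-identical copies, so the split of reads between them is uncertain. CGA, the shared alpha chain, and CSH1, a placental hormone, had 0 counts in all 12 libraries, and the 6 trophoblast markers summed to between 2.38 and 2.44 CPM in HUCCT1 vehicle and between 7.02 and 8.05 in decitabine.

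**Figure D4:**
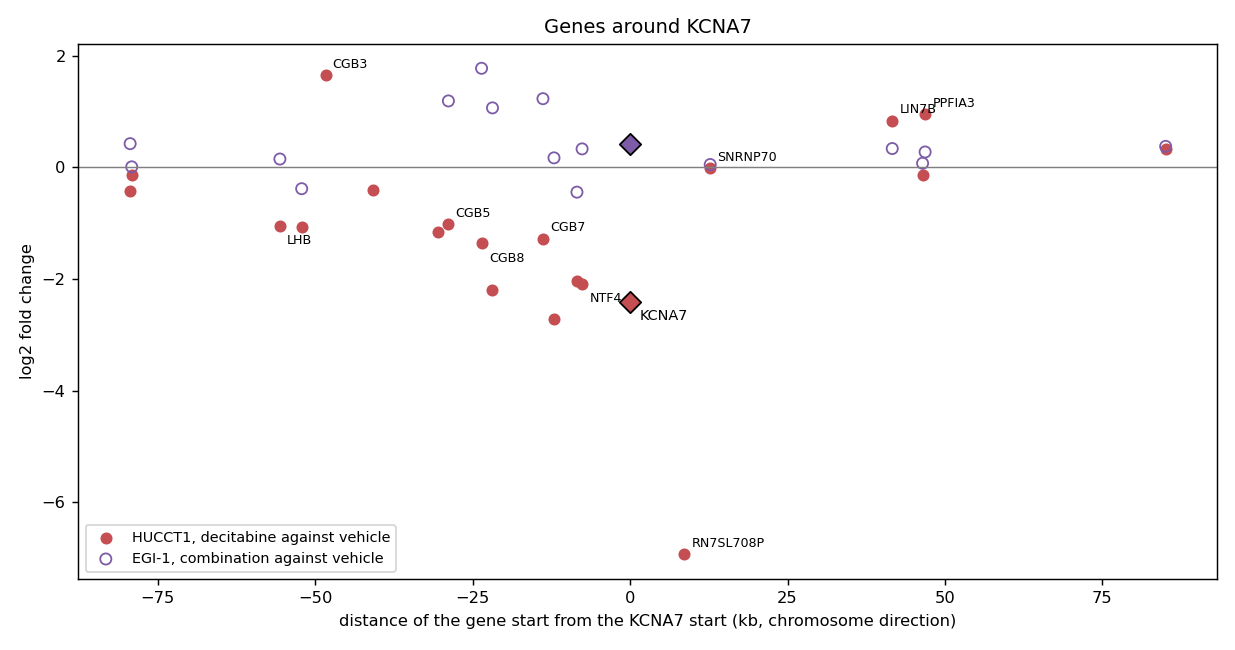
Log2 fold change of each gene tested within 100 kb of KCNA7 (diamonds) against the distance between gene starts in kb, for HUCCT1 decitabine (filled) and the EGI-1 combination (open, where tested). The HUCCT1 values are -1.05 at LHB, -2.08 at NTF4, -2.72 at ENSG00000268108 and -2.41 at KCNA7, with CGB3 above 0, SNRNP70 at -0.01 and the lowest point, RN7SL708P at -6.94, resting on 0 counts with decitabine, while the EGI-1 values of CGB5, CGB7 and CGB8 lie above 1.

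Fewer genes were tested around the others. Of the 6 within 100 kb of PZP, 3 fell and none rose in HUCCT1, with a median log2 fold change of -0.61, beside the 13.9% of all genes that fell. TPT1P12, a processed pseudogene inside PZP on the same strand, went from 22 and 21 counts to 2 and 2 in HUCCT1, and reads of a host gene can be counted to such a pseudogene. A2M, 32.6 kb from PZP, fell by 0.49 from 463 and 492 counts to 383 and 316. DDX12B, a pseudogene 68.8 kb away, fell by 0.65 from 887 and 1018 counts to 602 and 636, and it is named after its value was seen. Beside SIGLEC6 at chr19:51517819-51531856, ZNF175, a zinc finger gene 39.4 kb away, fell by 1.38, from 1087 and 1005 counts to 445 and 378. CLDND2, the nearest tested gene on the other side, differed by -0.59 and did not pass. XYLT1 at chr16:17101769-17470960 had no tested gene within 100 kb.

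The relatives of SIGLEC6 and PZP were followed next. Of the 3 other Siglec genes tested in HUCCT1, where 19.6% of all genes rose and 13.9% fell, 2 rose and none fell. CD22, a receptor of B cells, rose by 1.09 on the log2 scale, from 20 and 42 counts to 59 and 76. Its vehicle libraries differed 2.11-fold in CPM. The myeloid receptor CD33 rose by 1.82, from 4 and 6 counts to 24 and 13, and was never above 0.75 CPM. CD22 also rose in EGI-1, by 0.73 with decitabine (SE 0.14, edgeR adjusted p = 0.0246) and by 1.01 with the combination (SE 0.14, edgeR adjusted p = 7.58e-05), from 177 and 177 counts with vehicle to 294 and 382. It was still called without combination replicate 2 at 0.98. SIGLEC15 rose by 0.92 with the combination (SE 0.17, edgeR adjusted p = 0.000748). In the alpha-2-macroglobulin family, 3 of 6 tested genes rose and 3 fell in HUCCT1, beside 19.6% and 13.9% of all genes. Complement C3 rose by 1.33, from 313 ± 10.8 to 795 ± 17.1 CPM, and CD109 fell by 0.65. C3 rose in EGI-1 by 0.28 with decitabine, 0.28 with talazoparib and 0.46 with the combination (SE 0.05 for each, edgeR adjusted p = 0.0103, 0.00222 and 3.16e-06).

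XYLT2, the other xylosyltransferase, stood at 21.0 CPM per kb in HUCCT1 vehicle, where XYLT1 was at 0.738, and at 12.1 CPM per kb in EGI-1 vehicle. It fell by 0.33 on the log2 scale in HUCCT1, from 115 ± 11.5 to 92.1 ± 5.36 CPM. Of the 17 other glycosaminoglycan genes tested there, XYLT2 included, 5 rose and 2 fell, beside 19.6% and 13.9% of all genes. CSGALNACT1 and CSGALNACT2, which start chondroitin chains, rose by 1.09 and 0.79, and PXYLP1, the xylose phosphatase, by 0.89. In EGI-1 none of 18 passed with decitabine, where 0.544% of all genes did, and 5 rose and 2 fell with the combination, beside 11.1% and 7.61% of all genes. The chondroitin polymerising factor gene CHPF2 rose by 0.53 (SE 0.08, edgeR adjusted p = 0.000101), and UGDH, which makes the sugar donor UDP-glucuronate, fell by 0.47 (SE 0.06, edgeR adjusted p = 5.43e-05). CHSY3 was no longer called without combination replicate 2 (edgeR adjusted p = 0.0878).

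Among the Kv1 subunits, 2 of 4 others tested in HUCCT1 rose, beside 19.6% of all genes. These were KCNA6 from 10 and 3 counts to 69 and 71 and the auxiliary subunit KCNAB2 from 323 and 300 to 686 and 736. In EGI-1 only 4 of the 11 Kv1 genes were tested, KCNA7 included, and none passed against vehicle. Over all genes 0.544% passed with decitabine, 4.12% with talazoparib and 18.7% with the combination. KCNA3, the Kv1 channel best known from T cells, had 39 counts in combination replicate 2 and 0 in the other 7 EGI-1 libraries, and it is named after its value was seen.

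Genes with the most similar pattern over the 12 libraries were sought by the root mean square difference of centred log2 CPM. This measure is a description, and its points share the difference between the lines. KCNA7 was matched most closely by ENSG00000269706, a pseudogene 16.6 kb away, at 0.33 and by CDK15, a kinase gene on another chromosome, at 0.38. CDK15 had 95 and 92 counts with vehicle and 29 and 20 with decitabine in HUCCT1, and 8 to 19 in EGI-1. For INTS3 the nearest genes were ENSG00000285663 at 0.87 and BNC2-AS1 at 0.95. Candidates had to be tested in both lines, whereas SIGLEC6, PZP and XYLT1 did not pass the filter in EGI-1. Genes as low in EGI-1 as these were thus left out beforehand. Within that limit, SIGLEC6 and PZP had MIR31HG and COL5A2 nearest, both at 0.59 to 0.70, and XYLT1 had EPHA4 at 0.73 and WDR81 at 0.86. MIR31HG had 31 to 58 counts in EGI-1 and COL5A2 14 to 37. Their log2 fold changes in HUCCT1 were -1.08 and -1.33. EPHA4, an ephrin receptor, had 52 counts in combination replicate 2 and 6 to 23 in the other EGI-1 libraries.

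The genes that fell in HUCCT1 were also looked up in EGI-1 decitabine. Of the 3121 called lower in HUCCT1, 2989 were tested in EGI-1, and edgeR called 4 of them lower and 7 higher there. Over all 19937 genes tested in both lines it called 6 lower and 116 higher. Their median log2 fold change was -0.02 beside 0.01 over all genes tested in both lines, and 58.2% had a lower value with decitabine beside 48.4% of all.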

How the data were processed

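RNA of 2 cell lines was sequenced in 12 libraries, and the authors deposited raw counts per gene without normalization. The processing notes name fastp, Trim Galore, HISAT2, featureCounts and GRCh38, while the methods of the study name fastp, STAR and RSEM. The labels give Trizol for RNA extraction and the methods a column kit. The use of the strand and of reads that match several genes is not given in the sources used here. Gene symbols and positions were taken from GENCODE 44 on GRCh38 for 60437 of 60651 identifiers.

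The members and the gene lists were chosen with earlier results of these data known. The count test was that of edgeR 4.0.16 under R 4.3.3 (filterByExpr by arm, TMM scaling, robust quasi-likelihood fit, Benjamini-Hochberg adjustment over all genes tested), and an adjusted p under 0.05 was a call. The 8 EGI-1 libraries were fitted together without a replicate block and the 4 HUCCT1 libraries apart. The script was tested on simulated data. CPM use TMM factors over all 12 libraries. Between replicates the chi-square per gene was 2.73 to 12.6, above counting noise.

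Named genes were the 5 members, the next 3 of the ranking, neighbours and overlapping genes, the 2 genes most alike in pattern, and up to 4 genes past the threshold per list. Similar patterns were sought among genes tested in both lines, with 0.1 CPM added before the log2. Alternatives were DESeq2 1.42.0, other scalings, no filter on low counts, replicate blocks, only the compared arms, and each library left out. Promoters are from RefSeq (GRCh38.p14), and all 5 genes matched. The marker lists for hepatocytes and stromal cells were summed in the same way and gave 21.0 to 110 CPM and 32.0 to 211 CPM.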

Additional observations from a re-analysis of the deposited data

How the results depend on the processing

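The values in HUCCT1 that chose the 5 genes kept their direction under all 10 alternatives run there. The choice required both treated libraries under both vehicle libraries, so this was largely fixed in advance and is a description only. The log2 fold changes of the genes ranged from -3.53 to -3.04 for SIGLEC6, from -3.72 to -2.76 for INTS3, from -2.84 to -2.31 for PZP, from -2.56 to -2.30 for XYLT1 and from -2.75 to -2.15 for KCNA7.

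With each library left out in turn, where the lone sample of an arm is assumed to vary like the other groups, the genes called ranged from 22 to 417 for EGI-1 decitabine, 247 to 1663 for talazoparib, 1850 to 5288 for the combination, 853 to 2544 for the combination against decitabine, 111 to 1007 for the combination against talazoparib and 27 to 85 for the departure. Members called ranged from 0 to 1 in the contrasts of the combination with vehicle, decitabine and talazoparib, and the 1 was XYLT1 without combination replicate 1, when combination replicate 2 stood for the arm (edgeR adjusted p = 0.00258 against vehicle). Log2 fold changes that turned were not called. INTS3 ranged from -0.17 to 1.43 for decitabine (below 0 without decitabine replicate 1), from -1.34 to 1.22 for the combination against talazoparib and from -2.19 to 0.37 for the departure (both above 0 without talazoparib replicate 1). KCNA7 ranged from -0.88 to 0.057 for decitabine and from -0.50 to 0.43 for talazoparib (both above 0 without vehicle replicate 2). The log2 fold change of INTS3 over vehicle ranged from 1.14 to 3.69 for talazoparib and from 1.99 to 2.67 for the combination. Without combination replicate 2, 2523 genes were called for the combination against vehicle.

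With no filter on low counts, 335 genes were called for decitabine, 897 for the combination against talazoparib and 71 for the departure, and 1 member, XYLT1, was called in the combination against vehicle, against decitabine and against talazoparib. Fits on only the compared arms called 43 genes for decitabine, 1851 for talazoparib, 963 for the combination against decitabine and 700 against talazoparib, with 1 member, INTS3, in the combination. DESeq2 called 1 member, INTS3 with talazoparib. The cause of these changes was not tested.

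The replicate numbers did not pair the libraries (correlations from -0.07 to 0.06 in EGI-1 and 0.11 in HUCCT1). A replicate block by number in the titles called 60 genes for decitabine and 249 for the combination against talazoparib, and a replicate block by library name called 75 for decitabine, with no member called. At counts of 3 or fewer, as for SIGLEC6 and PZP in EGI-1, depth allows no statement on change.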
